A study of Mus musculus with 5 samples.

Results

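Glutamate receptors and the scaffold proteins that hold them at the postsynaptic membrane were examined in ribosome-bound RNA of central amygdala (CeA) Drd2 neurons. The set was chosen by gene symbol and holds 38 of the 15093 genes in the table: 22 receptor subunits or receptors, 14 scaffold proteins and 2 cornichons, which are auxiliary proteins of AMPA receptors. All 38 were listed, with at least 1 read in each library. The libraries came from translating ribosome affinity purification (TRAP), in which ribosomes carrying an eGFP-tagged L10a protein are pulled down from one cell type. All mice were adults of the Drd2-TRAP strain, a cross of a Drd2-Cre driver with a Rosa26 floxed-stop line. Cre switches the tag on for good, so any cell that makes or once made Cre is captured. The Fear conditioning group had 3 libraries (replicates 2, 3 and 4) from mice given tone and foot shock pairings, and the Home Cage group had 2 (replicates 6 and 7). Each library was a pool of bilateral 1 mm punches from 3 mice, collected 2 h after the session. The labels name Home Cage animals and a session of fear extinction, while the methods name conditioning and the study's account of the controls has them hear the tone in the chamber without shock. Sex was not given for these mice in the sources used here.

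Glutamate is the main excitatory transmitter of the brain. AMPA receptors carry most of the fast synaptic current, NMDA receptors admit calcium when transmitter and depolarization coincide, kainate receptors adjust transmission on both sides of the synapse, and metabotropic receptors signal through G proteins. Beneath the membrane, MAGUK proteins such as PSD-95 bind receptors, SAPAP proteins link MAGUKs to Shanks, and Homers join Shanks to group I metabotropic receptors. In the amygdala, the strength of such synapses is known to change with fear learning.

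Values were reads per 1000000 of an effective library size, written below as normalized values. The whole reads behind them could be recovered. The libraries held 19605318 to 27937520 reads on genes, and between 0.377 and 0.497% of them fell on the 38 genes. Genes at 0 numbered 976 in home cage replicate 6 and 2681 in replicate 7, against 159 to 349 in fear conditioned libraries. Over all genes tested, the Pearson correlation of log2 values was 0.746 between the home cage libraries and 0.976 to 0.984 between fear conditioned libraries. Over the 38 genes it was 0.785 and 0.968 to 0.985. A count of 0 allows up to 3 reads, a value of at most 0.158, and this limit covers counting error only. Drd2 stood at 326 to 555 in the fear conditioned libraries and at 128 and 262 in the home cage libraries. Each gene of the marker lists was in the table, and their sums separated the groups for several cell types. The 7 genes of Drd2 or striatal projection neurons summed to 19921 to 21659 after fear conditioning and to 8889 and 13334 in home cage libraries. Most of this sum was Penk, at 13565 to 16076 against 6098 and 8606. Of that list, Gad2 was lower in every fear conditioned library (435 to 481, against 657 and 671) and Gad1 overlapped (820 to 921, against 734 and 968). The sums were lower after fear conditioning for 6 pallial glutamatergic neuron genes (46.3 to 197, against 360 and 256), 6 astrocyte genes (480 to 628, against 1405 and 2378), 4 choroid plexus genes (57.7 to 110, against 993 and 1410) and, by a small margin, 5 microglial genes (23.9 to 52.7, against 65.2 and 53.9). They overlapped for 5 oligodendrocyte genes (1058 to 2399, against 2322 and 4831) and 3 endothelial genes (3.75 to 20.1, against 18.2 and 10.4). For 2 genes of oligodendrocyte precursors the sums were 10.5 to 17.7 after fear conditioning, and 42.3 and 27.6 in home cage libraries. Not every gene followed its sum. The groups overlapped for Neurod1, Neurod6 and Tbr1 of the pallial list and for Aqp4 and Aldh1l1 of the astrocyte list. They also overlapped for Clic6 and Folr1 (choroid plexus), Cspg4 (oligodendrocyte precursor), and Cx3cr1, C1qa and Tmem119 (microglial). Aif1, also microglial, was higher in every fear conditioned library (1.83 to 6.12, against 1.60 and 0.11). Apart from these, the pallial, astrocyte, choroid plexus, precursor and microglial genes were lower in every fear conditioned library. Slc17a7 and Slc1a2 made up most of the pallial and astrocyte sums. In home cage libraries most of the choroid plexus sum was Ttr, at 913 and 1320. Among the defining markers, Neurod1 and Folr1 were at 0 in fear conditioned replicate 2. Neurons, astrocytes and oligodendrocyte precursors all make glutamate receptors, and the part of these differences in the values below was not tested. In pull-downs from pooled punches, the number of cells of a type, RNA per cell and the purity of the pull-down cannot be told apart.

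Of the 38 genes, 26 had a promoter window in the RefSeq table of build GRCm38.p6. The 250 bases before the annotated start are printed for Homer1 and Cnih2, the higher genes, and for Dlgap1, Grik4 and Cnih3, which were lower. These are 5 of the 6 genes whose groups did not overlap and that had an unadjusted p under 0.05. The sixth, Grin3a, is named only. Each is written 5' to 3' along the gene, the first listed window being used where a gene has more than 1. Capitals mark the letters TGACGT (the core of a cAMP response element), CACGTG (an E-box) or GGGCGG (an Sp1 box), searched on both strands. None of the marked stretches overlap.
Homer1, chr13:93303507-93303756, plus strand: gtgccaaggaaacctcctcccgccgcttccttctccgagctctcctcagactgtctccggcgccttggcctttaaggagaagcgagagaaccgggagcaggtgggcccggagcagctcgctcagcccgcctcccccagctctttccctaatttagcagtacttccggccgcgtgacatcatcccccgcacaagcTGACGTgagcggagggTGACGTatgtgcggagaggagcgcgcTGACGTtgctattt
Cnih2, chr19:5098522-5098771, minus strand: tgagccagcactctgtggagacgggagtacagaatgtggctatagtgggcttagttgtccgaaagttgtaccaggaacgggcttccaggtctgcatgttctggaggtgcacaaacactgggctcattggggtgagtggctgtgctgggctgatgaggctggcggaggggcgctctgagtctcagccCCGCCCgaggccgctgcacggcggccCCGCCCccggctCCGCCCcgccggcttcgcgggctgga
Dlgap1, chr17:69968823-69969072, plus strand: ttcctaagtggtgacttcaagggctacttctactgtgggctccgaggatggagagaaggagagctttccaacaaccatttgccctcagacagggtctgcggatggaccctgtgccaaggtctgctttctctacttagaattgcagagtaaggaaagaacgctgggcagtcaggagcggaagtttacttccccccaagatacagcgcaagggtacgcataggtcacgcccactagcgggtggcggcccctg
Grik4, chr9:42944372-42944621, minus strand: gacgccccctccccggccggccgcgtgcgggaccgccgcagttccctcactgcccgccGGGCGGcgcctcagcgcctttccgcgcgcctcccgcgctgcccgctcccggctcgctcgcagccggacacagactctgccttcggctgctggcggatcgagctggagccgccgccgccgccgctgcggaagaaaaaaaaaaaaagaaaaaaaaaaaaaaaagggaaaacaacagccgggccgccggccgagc
Cnih3, chr1:181352378-181352627, plus strand: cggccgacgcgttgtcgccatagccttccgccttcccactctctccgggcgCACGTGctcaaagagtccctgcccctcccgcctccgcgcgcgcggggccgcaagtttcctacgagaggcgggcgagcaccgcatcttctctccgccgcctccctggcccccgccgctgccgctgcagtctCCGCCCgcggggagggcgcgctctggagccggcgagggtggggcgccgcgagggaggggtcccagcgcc
The Homer1 window held 3 copies of TGACGT and it was the only one of the 26 first windows that held this hexamer, which is found in 6.47% of the 32851 windows in the table. The Cnih2 window held 3 Sp1 boxes and no other motif searched. The Cnih3 window held 1 E-box and 1 Sp1 box, the Grik4 window 1 Sp1 box and the Dlgap1 window none of the 3 motifs. Sp1 boxes were in 15 of the 26 windows and in 32.7% of all windows, and E-boxes in 3 of the 26 and in 6.02% of all. TATAAA was in 0 of the 26 (12.4% of all windows), and TGANTCA, an AP-1 site, in 1 (6.75% of all). These are matches of letters, and binding was not measured.

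The first comparison asked which of these genes differed in Drd2 neurons between fear conditioned and home cage mice. None of the 38 passed in limma, which was fitted two-sided to log2(value + 1), and p was adjusted (Benjamini-Hochberg) over the 13560 genes whose mean value reached 1. A call needed an adjusted p below 0.05 together with a log2 fold change beyond 0.5 in either direction. This rule called 0 of all genes tested (0%), and the adjusted p of the 38 ranged from 0.197 to 0.994. At an unadjusted p under 0.05 there were 2 higher and 4 lower genes among the 38, against 9.49% of all genes tested on the higher side and 7.32% on the lower. The groups did not overlap for 3 genes that were higher after fear conditioning (20.2% of all genes tested) and for 8 that were lower (16.1% of all). In all, 14 of the 38 had a log2 fold change above 0 and 24 below it. Of the 13560 genes tested, 7329 were above 0 and 6231 below. The median of the 38 was -0.29, where the median of all genes tested was 0.08. The shares that were lower, 8 of 38 by non-overlap and 4 of 38 by unadjusted p, lie close to those of all genes. The shares that were higher, 3 of 38 and 2 of 38, lie below those of all genes, a difference that was not tested.

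**Figure D1:**
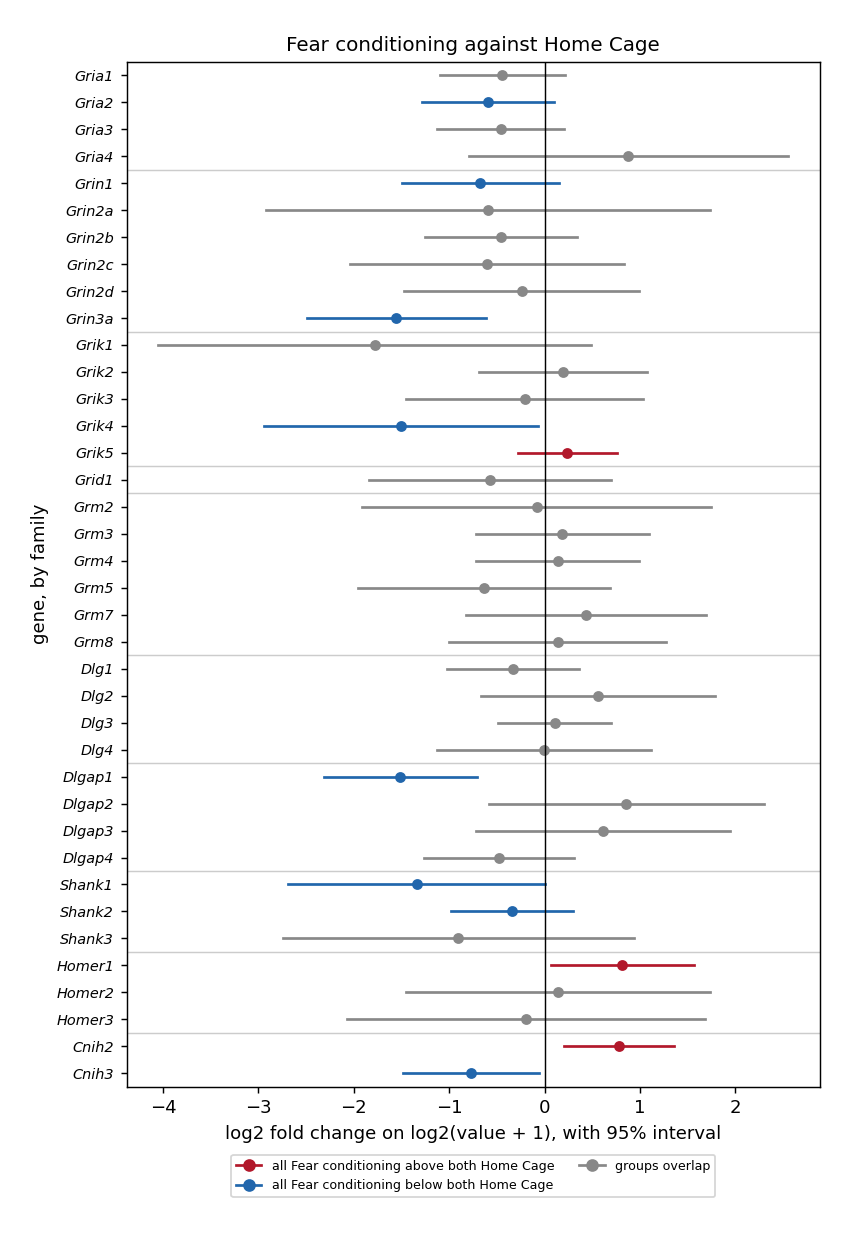
Log2 fold change (x axis, log2(value + 1) scale, fear conditioned minus home cage) of each of the 38 genes (y axis, by family) from limma, with its 95% interval as a bar. Red genes had all 3 fear conditioned libraries above both home cage libraries, blue genes had all 3 below, and for gray genes the groups overlapped. The intervals of Grin3a, Dlgap1, Grik4 and Cnih3 lay below 0 and those of Homer1 and Cnih2 above it.

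The AMPA receptor subunits were led by Gria2 (ENSMUSG00000033981), whose edited product makes the channel impermeable to calcium. Fear conditioned replicates 2, 3 and 4 had normalized values of 380, 626 and 605, against 784 and 802 in home cage replicates 6 and 7, and this order of libraries is kept below. All 3 fear conditioned libraries were lower than both home cage libraries. On the log2 scale it was lower by a fold change of -0.60 (standard error 0.28, 95% interval -1.29 to 0.09), with an adjusted p of 0.351 from limma. Gria1 had 204, 221 and 276 after fear conditioning, and 387 and 256 in home cage libraries. Gria3 had 102, 138 and 129, and then 207 and 137. For both subunits home cage replicate 6 was highest while replicate 7 lay inside the fear conditioned range. Their log2 fold changes were -0.44 (standard error 0.27) for Gria1 and -0.46 (standard error 0.28) for Gria3.

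Gria4, the least abundant AMPA subunit per kb in every library, split the home cage libraries. It had 36.0, 44.2 and 47.7 after fear conditioning, with 52.8 in home cage replicate 6 and 9.33 in replicate 7. One home cage library was above the fear conditioned range and the other below it. Without replicate 6 its log2 fold change was 2.07, and without replicate 7 it was -0.31. Divided by gene length, Gria2 made up 54.4 ± 4.20% (SD, n = 3) of the AMPA subunit level in fear conditioned libraries and 58.2 ± 8.49% (SD, n = 2) in home cage libraries, which is less than the home cage SD apart. Gria1 made up 27.8 ± 3.65% and 26.7 ± 4.31%, Gria3 13.1 ± 0.972% and 12.8 ± 2.07%, and Gria4 4.73 ± 0.343% and 2.30 ± 2.11% in the 2 groups (SD, n = 3 and 2). Gria4 held a smaller share in both home cage libraries, at 3.79 and 0.805%, than in any fear conditioned library, where it was 4.44 to 5.11%. The order Gria2, Gria1, Gria3, Gria4 was the same in all 5 libraries.

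The cornichons lay on opposite sides. Cnih2 (ENSMUSG00000024873), which slows the closing of AMPA receptors and helps them leave the endoplasmic reticulum, had 999, 864 and 732 in fear conditioned libraries and 543 and 458 in home cage libraries. Cnih3 (ENSMUSG00000026514), its close relative, had 71.3, 70.3 and 44.9, and then 107 and 101. Every fear conditioned library was above both home cage libraries for Cnih2 and below both for Cnih3. The log2 fold change of Cnih2 was 0.78 (standard error 0.24, 95% interval 0.20 to 1.36, unadjusted p = 0.0158, adjusted p = 0.223, limma). That of Cnih3 was -0.77 (standard error 0.29, 95% interval -1.48 to -0.05, unadjusted p = 0.0389, adjusted p = 0.277, limma). Two-sided exact permutation tests over the 10 ways to choose 3 of 5 libraries gave p = 0.1 for each, the smallest p of this design. When any single library was dropped, the values ranged between 0.66 and 0.90 for Cnih2 and between -0.88 and -0.55 for Cnih3.

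As a share of both cornichons per kb, a measure that does not depend on how a library is scaled, Cnih3 was 2.39, 2.71 and 2.06% in fear conditioned libraries and 6.32 and 7.04% in home cage libraries. The home cage shares were the higher ones, 6.68 ± 0.504% (SD, n = 2) against 2.38 ± 0.325% (SD, n = 3). Cnih2 was the most abundant of the 38 genes per kb in every library, from 372 to 811 per kb. Its mean over the 5 libraries, 584 per kb, was at or above 99.6% of the 15084 genes with a usable length. Gria2 came next at 92.1 per kb (94.8%) and Grm5 at 51.8 per kb (90.3%).

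**Figure D2:**
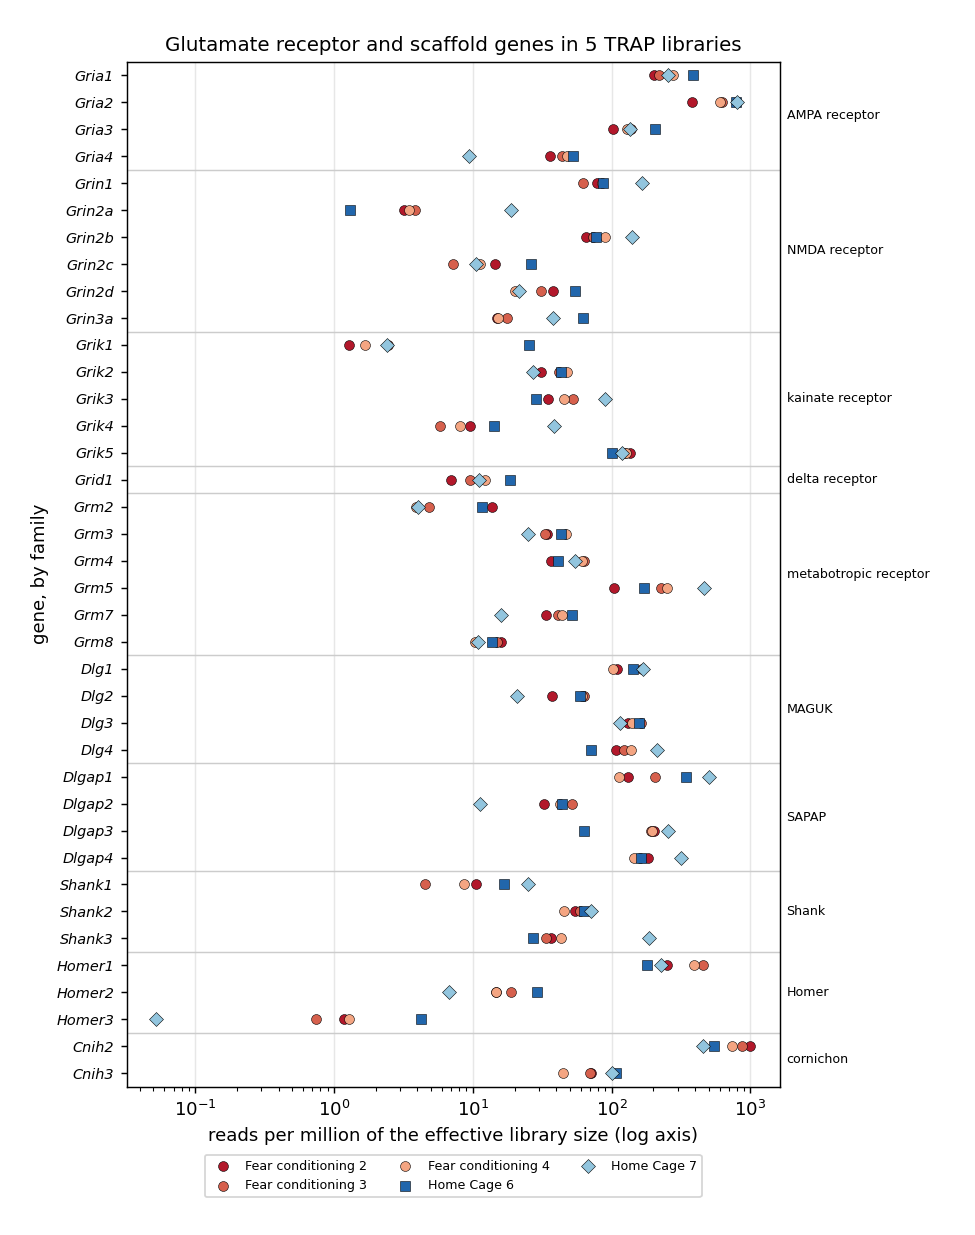
Normalized value (x axis, reads per 1000000 of the effective library size, log scale) of each of the 38 genes (y axis, by family) in each library, with circles for the 3 fear conditioned libraries and a square and a diamond for home cage replicates 6 and 7. Cnih2 and Gria2 lie at the high end and Homer3, Grin2a and Grik1 at the low end, and the home cage symbols often lie on both sides of the circles. These values are not divided by gene length.

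All 6 NMDA receptor genes had negative log2 fold changes, from -1.55 to -0.24, in limma, where none passed. DESeq2 and edgeR's likelihood ratio test called Grin3a. Grin3a (ENSMUSG00000039579), which encodes GluN3A, a subunit that lowers calcium entry and is most abundant in young brain, had the largest difference. Its values were 15, 17.7 and 15.2 in fear conditioned libraries and 62.3 and 38 in home cage libraries. The 3 fear conditioned values lay close together, and both home cage values were over 2-fold higher. The log2 fold change was -1.55 (standard error 0.39, 95% interval -2.49 to -0.62, unadjusted p = 0.00635, adjusted p = 0.200, limma), and an exact two-sided permutation test gave its smallest p of 0.1. It was -1.20 without home cage replicate 6 and -1.90 without replicate 7.

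Grin1 (ENSMUSG00000026959), the obligatory GluN1 subunit, had 79.1, 61.9 and 85.7 after fear conditioning, and 87.5 and 165 in home cage libraries. The groups did not overlap, but the nearest values, 85.7 and 87.5, almost met. Its log2 fold change of -0.68 (standard error 0.34, 95% interval -1.50 to 0.15, adjusted p = 0.370, limma) was -0.22 without home cage replicate 7 and -1.13 without replicate 6. Grin2b, the GluN2B subunit, had 66.0, 73.6 and 89.4 and then 77.3 and 140, so that only replicate 7 stood apart. Grin2c and Grin2d were highest in home cage replicate 6, at 26.2 and 54.2, while replicate 7, at 10.5 and 21.6, lay inside the fear conditioned ranges of 7.20 to 14.5 and 20.3 to 38.

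Grin2a, the GluN2A subunit that is typical of mature forebrain synapses, was scarce. It had 3.18, 3.83 and 3.48 in fear conditioned libraries, 1.30 in home cage replicate 6 and 18.9 in replicate 7. The home cage libraries differed 14.5-fold and lay on opposite sides of the fear conditioned range. Leaving out replicate 7 turned its log2 fold change from -0.59 to 0.96, and leaving out replicate 6 gave -2.15. Per kb, Grin2b exceeded Grin2a in all 5 libraries, at 6.30 to 8.54 against 0.449 to 0.541 in fear conditioned libraries and at 7.38 and 13.4 against 0.184 and 2.67 in home cage libraries. Grin1 was the most abundant NMDA receptor gene per kb in every library, with 38.7 ± 3.46% of the family after fear conditioning (SD, n = 3) and 39.7 ± 11.2% in home cage libraries (SD, n = 2). The share of Grin3a was 2.89 to 3.97% and then 8.93 and 4.32%, not overlapping between the groups.

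Among kainate receptor genes, Grik5 (ENSMUSG00000003378), a high-affinity subunit that works only together with other subunits, was dominant. It had 136, 125 and 126 after fear conditioning and 101 and 118 in home cage libraries. The groups did not overlap, yet the log2 fold change was 0.24 (standard error 0.21, 95% interval -0.28 to 0.75, adjusted p = 0.588, limma). Per kb, Grik5 made up 79.9, 73.4 and 73.8% of the kainate receptor level in fear conditioned libraries and 60.1 and 61.5% in home cage libraries. The home cage shares were lower and close to each other, although different subunits made up the rest in replicates 6 and 7.

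In home cage replicate 6 the next largest share per kb was that of Grik1, a subunit that can form channels alone, at 17.5%, followed by Grik2 at 10.2%. Grik1 had a share of 0.868 to 1.67% in fear conditioned libraries and 1.45% in replicate 7. Its values were 1.28, 2.46 and 1.69 after fear conditioning, 25.4 in home cage replicate 6 and 2.43 in replicate 7. Its difference rested on replicate 6: the log2 fold change was -1.78 with that library (standard error 0.94, limma adjusted p = 0.383) and -0.31 without it. In replicate 7 the next largest shares were those of Grik3 and Grik4, at 19.9 and 11.6%.

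Grik4 (ENSMUSG00000032017), the other high-affinity subunit, had 9.58, 5.79 and 8.09 after fear conditioning and 14.3 and 38.7 in home cage libraries. All fear conditioned values were lower than both home cage values. Its log2 fold change was -1.51 (standard error 0.59, 95% interval -2.94 to -0.07, unadjusted p = 0.0428, adjusted p = 0.284, limma), and -0.82 without home cage replicate 7. Grik3 had 34.8 to 53.0 after fear conditioning, 28.7 in replicate 6 and 89.7 in replicate 7, on opposite sides. Grik2 had 31.3 to 47.6 and then 43.5 and 27.4. The delta receptor gene Grid1, whose product joins synapses structurally more than it passes current, had 6.97, 9.49 and 12.3, and then 18.4 and 11.2, with a log2 fold change of -0.57 (standard error 0.52).

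The groups overlapped for each of the 6 metabotropic receptor genes. Grm5 (ENSMUSG00000049583), the group I receptor that Homer proteins bind, was the most abundant of them per kb in each library. It had 105, 227 and 250 after fear conditioning, 172 in home cage replicate 6 and 464 in replicate 7. The fear conditioned libraries themselves differed 2.39-fold, and replicate 7 was above all of them. The resulting log2 fold change of -0.64 (standard error 0.54; limma, adjusted p = 0.573) became 0.08 without replicate 7. Grm5 made up 44.0 to 60.6% of the metabotropic level per kb after fear conditioning, and 51.8 and 81.6% in home cage libraries.

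Of the receptors that couple to inhibition of adenylyl cyclase, Grm2, Grm3, Grm4 and Grm8 had group means close together relative to their intervals. Grm3, which astrocytes also make, had 34.3, 33.3 and 47.2 and then 43.3 and 25.2. Grm4 had 36.6 to 63.3 and then 41.2 and 54.6, and Grm8 had 10.4 to 16.0 and then 13.8 and 10.9. Grm2 was low throughout, from 3.92 to 13.7. The log2 fold changes of these 4 genes lay between -0.08 and 0.19. The 95% interval ran from -0.72 to 1.09 for Grm3 and from -0.72 to 0.99 for Grm4, and those of Grm8 and Grm2 were wider. Grm7, a presynaptic receptor with the same coupling, had 33.5 to 44.2 after fear conditioning, 51.5 in replicate 6 and 16.1 in replicate 7, again on opposite sides. Its log2 fold change was 0.43 (95% interval -0.83 to 1.69).

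Of the scaffold genes, Dlgap1 (ENSMUSG00000003279) had the smallest limma p of all 38, while Grin3a had the smallest in DESeq2 and in edgeR's quasi-likelihood test. It encodes SAPAP1, also called GKAP, which links PSD-95 to Shanks. Its values were 132, 205 and 113 after fear conditioning, and 342 and 506 in home cage libraries. Every home cage value was well above every fear conditioned value. The log2 fold change was -1.51 (standard error 0.33, 95% interval -2.31 to -0.71, unadjusted p = 0.00338, adjusted p = 0.197, limma), between -1.79 and -1.23 with each library left out, and the exact two-sided permutation p was 0.1, its smallest.

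The other SAPAP genes did not share this pattern. Dlgap3 (ENSMUSG00000042388), the form known for its high level in striatum and the leading SAPAP per kb after fear conditioning, had 201, 192 and 194. In home cage replicates 6 and 7 it had 63.7 and 256. The fear conditioned values differed 1.05-fold while the home cage values differed 4.02-fold and lay on both sides of them. Dlgap4 had 146 to 183 after fear conditioning and then 162 and 317, and Dlgap2 had 32.8 to 52.1 and then 44.2 and 11.3. Per kb, Dlgap1 made up 10.4, 15.6 and 9.65% of the SAPAP level in fear conditioned libraries and 34.6 and 24.8% in home cage libraries, while Dlgap3 made up 54.8, 50.7 and 57.2% and then 22.3 and 43.3%. For both genes the shares of the groups did not overlap.

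**Figure D3:**
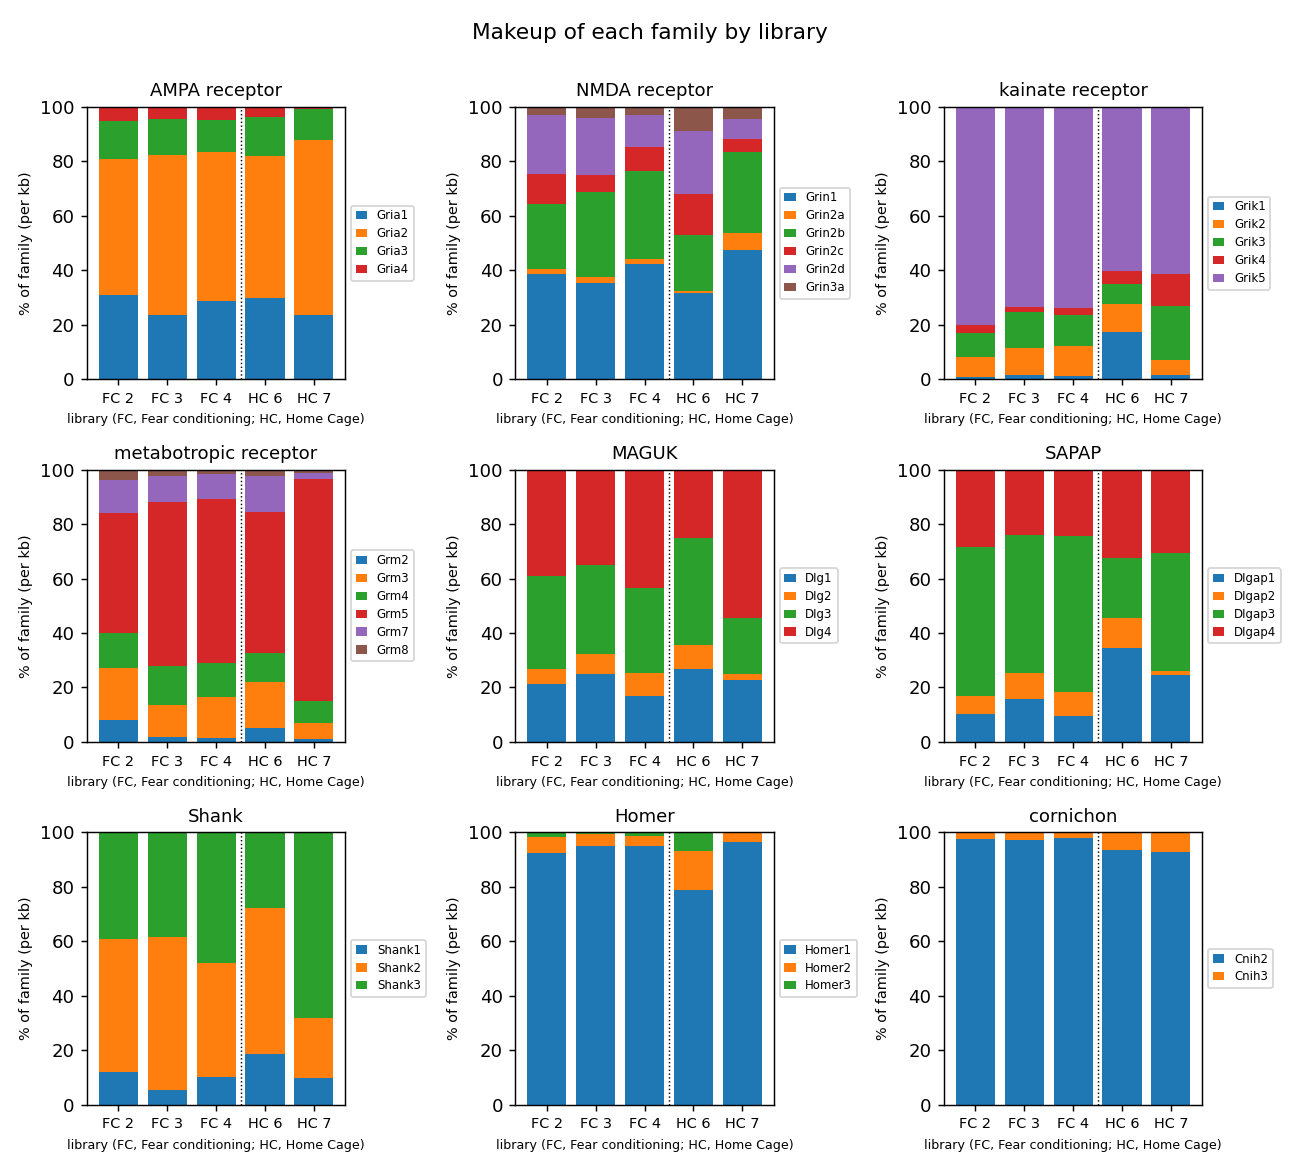
Share (y axis, percent of the summed value per kb) of each gene in its family, for the 9 families with more than 1 gene, in each library (x axis; FC, fear conditioned; HC, home cage). Grik5, Dlgap3 and Cnih2 held larger shares in all FC libraries than in both HC libraries, and the shares of Dlg4, Shank3 and Grm5 differed more between HC 6 and HC 7 than among the FC libraries.

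No MAGUK gene separated the groups. Dlg4 (ENSMUSG00000020886), which encodes PSD-95, had 107, 124 and 138 after fear conditioning, 70.8 in home cage replicate 6 and 213 in replicate 7. The home cage libraries enclosed the fear conditioned range, and the log2 fold change was -0.01 (standard error 0.46, 95% interval -1.13 to 1.11). It was 0.78 without replicate 7 and -0.80 without replicate 6. Dlg3, which encodes SAP102, was among the steadier genes, with 132, 163 and 140 and then 157 and 114, and a 95% interval from -0.48 to 0.70. Dlg1, which encodes SAP97, had 110, 166 and 102 and then 143 and 168. Dlg2, which encodes PSD-93, had 37.5 to 63.8 after fear conditioning and then 59.4 and 20.9.

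The Shank genes, which encode the deepest scaffold layer, all had negative log2 fold changes. Shank1 (ENSMUSG00000038738) had 10.5, 4.50 and 8.64 after fear conditioning, and 16.8 and 24.9 in home cage libraries. Shank2 (ENSMUSG00000037541) had 54.4, 59.5 and 45.2, and then 62.8 and 71.6. Both genes were lower in every fear conditioned library than in either home cage library. For Shank1 the log2 fold change was -1.34 (standard error 0.56, 95% interval -2.69 to 0.01, adjusted p = 0.299, limma), and for Shank2 -0.34 (standard error 0.26, 95% interval -0.98 to 0.30, adjusted p = 0.534, limma). Shank3 (ENSMUSG00000022623), the gene lost in Phelan-McDermid syndrome, had 36.5, 33.9 and 43.4 after fear conditioning, 27.0 in home cage replicate 6 and 187 in replicate 7. Its home cage libraries differed 6.92-fold, on opposite sides of the fear conditioned range, and its log2 fold change turned from -0.90 to 0.47 without replicate 7.

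Homer1 (ENSMUSG00000007617) was the leading Homer in every library, with 78.8 to 96.6% of the Homer level per kb. The gene makes long scaffold forms and a short form, Homer1a, that neuronal activity induces and that uncouples the scaffold, and values per gene do not separate these. It had 250, 457 and 391 after fear conditioning, and 180 and 226 in home cage libraries. All fear conditioned libraries were above both home cage libraries, replicate 2 by the least. Its difference was a log2 fold change of 0.81 (standard error 0.31, 95% interval 0.06 to 1.57, unadjusted p = 0.0379, adjusted p = 0.274, limma), and 0.63 to 1.07 with each library left out. The exact two-sided permutation p was 0.2.

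The other Homers were scarce and split the home cage libraries. Homer2 had 14.6, 18.7 and 14.6 after fear conditioning, 29.1 in replicate 6 and 6.80 in replicate 7. Homer3, which is known mainly from cerebellum, had 1.19, 0.750 and 1.29, then 4.27 in replicate 6 and 0.0527 in replicate 7. The last value is 1 read, below the limit that a count of 0 allows, so no fold of the home cage libraries is given for this gene.

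The home cage libraries differed from each other for many of these genes. For 9 of the 38 genes (23.7%) they lay on opposite sides of the fear conditioned range, as they did for 32.8% of all genes tested. Replicate 6 was the higher one for Gria4, Grm7, Homer2 and Homer3, and replicate 7 for Grin2a, Grik3, Dlg4, Dlgap3 and Shank3. They differed by over 2-fold for 17 of the 38 (44.7%, against 56.7% of all genes tested), and the 3 fear conditioned libraries for 4 (10.5%, against 16.8%). With 1 home cage library left out, the median log2 fold change of those of the 38 tested was -0.23 without replicate 6 and -0.22 without replicate 7. In these fits 1 library stands for its group and shows no spread, so no calls are given.

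**Figure D4:**
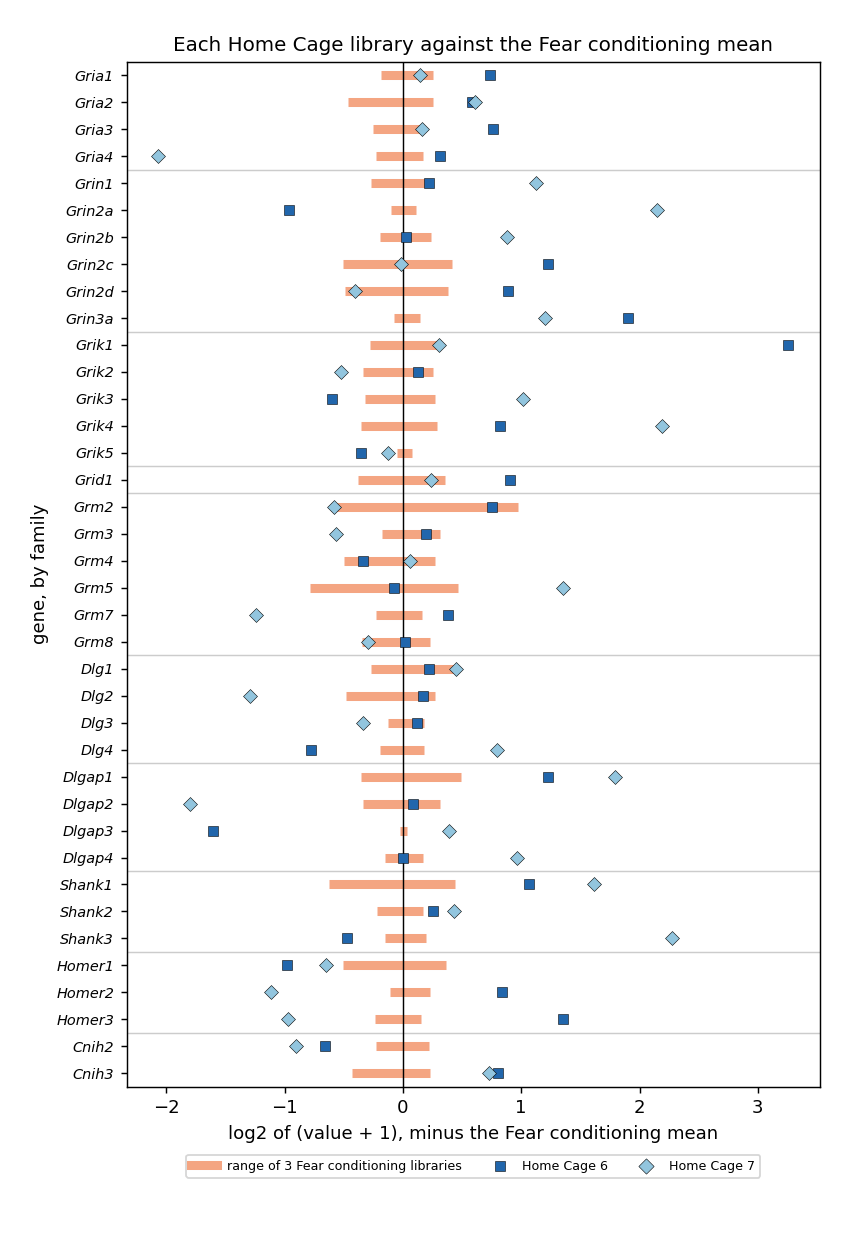
Position of home cage replicates 6 (squares) and 7 (diamonds) for each of the 38 genes (y axis), as the difference from the fear conditioned mean in log2(value + 1) (x axis), beside the range of the 3 fear conditioned libraries (orange bars). Both symbols lie to the right of the bar for 8 genes and to the left for 3, and on opposite sides for 9.

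Count tests were also run, on the reads recovered from the values. DESeq2 called 3 of the 38 genes, where it called 7.47% of all genes. These were Grin3a (log2 fold change -1.67, adjusted p = 0.00325), Dlgap1 (-1.54, adjusted p = 0.00403) and Cnih2 (0.76, adjusted p = 0.0356). edgeR's likelihood ratio test called Grin3a and Dlgap1 but not Cnih2, where it called 7.7% of all genes. edgeR's quasi-likelihood test called 0 of the 38 and 0 of all genes, with 2 higher and 5 lower among the 38 at an unadjusted p under 0.05, against 9.23 and 7.36% of all genes in that test. The shares of the 38 that were called lie near those of all genes.

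A further list held 66 other genes of the glutamate synapse, of which 61 were tested. None passed in limma. At an unadjusted p under 0.05 there were 3 higher and 8 lower of the 61, against 9.49 and 7.32% of all genes tested. The groups did not overlap for 9 higher and 18 lower of them, against 20.2 and 16.1% of all. Their median log2 fold change was -0.10. Of the lower genes, Tanc2, a scaffold that binds PSD-95, had 53.5, 76.0 and 86.6 after fear conditioning and 154 and 313 in home cage libraries, a log2 fold change of -1.62 (standard error 0.38). Shisa7, an AMPA receptor auxiliary protein, had 42.6, 44.4 and 59.7 and then 90.2 and 146. Nptx1, a secreted pentraxin that clusters AMPA receptors, had 50.4, 56.0 and 24.4 and then 80.3 and 174. These 3 were lower in every fear conditioned library.

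Of the higher genes on that list, Gsg1l, another AMPA receptor auxiliary protein, had 84.7, 164 and 152 after fear conditioning and 62.2 and 13.1 in home cage libraries, a log2 fold change of 2.12 (standard error 0.66). Abhd12, a lipid hydrolase found with AMPA receptor complexes, had 563, 547 and 522 and then 436 and 157. Cacng1, a relative of the TARPs known from muscle calcium channels, had 8.44, 14.8 and 8.24 and then 3.47 and 0. For 15 auxiliary proteins of AMPA receptors that were tested, 2 were higher and 5 lower at an unadjusted p under 0.05, where 9.49 and 7.32% of all genes tested were. The adjusted p of the 61 genes was 0.197 or more.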

How the data were processed

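TRAP RNA from the CeA was measured in 3 Fear conditioning and 2 Home Cage libraries, grouped by the labels. Replicate numbers differ between the groups, which leaves nothing to pair. Each library is a pool of 3 animals, and the p-values measure the spread between these pools. The authors deposited a normalized signal per gene and library (reads per 1000000 of an effective library size) with a gene length. The methods name Tuxedo DESeq, and the submitters' processing notes name DESeq and mm8. The aligner, annotation and strand setting are not given in the sources used here, so reads of overlapping antisense genes may be included. In each library 100% of values were whole multiples of 1 step to within 0.01, and the multiples were used as reads.

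Groups were compared with limma 3.58.1 (lmFit, eBayes with trend) on log2(value + 1), keeping genes whose mean value reached 1. On this scale the changes of low genes are understated. Single genes were also compared with an exact permutation test. Levels were compared between genes only per kb of the deposited length. Alternatives were another pseudocount, other filters and scalings, sample weights, edgeR 4.0.16, DESeq2 1.42.0, another adjusted p threshold and each library left out. The likelihood ratio test was added after the data were seen. The 38 genes and all lists were chosen with earlier results of these data known. Named with all values were the gene with the highest mean value per kb in a family, genes whose groups did not overlap, genes with home cage values over 4-fold apart, and the 3 genes with the smallest p in each direction from the further list. Other genes were given by value or range. All 38 matched the table of gene identifiers and symbols, and Adgrb3 of the further list was matched by identifier. Promoter windows came from RefSeq (GRCm38.p6), with 12 of the 38 genes having none, and lengths below 0 (9 genes) were not used. R 4.3.3, Python 3.11.15 and matplotlib 3.10.9 were used. One marker gene is not reported here and was left out of its list's sum.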

Additional observations from a re-analysis of the deposited data

How the results depend on the processing

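No paired analysis was possible because the groups share no replicate numbers. Of 492 fold changes of the 38 genes under all alternatives, 461 kept their direction, and 31 in 20 genes reversed. Outside the fits that left out a library, 7 log2 fold changes reversed: Homer3 was 0.49 with a pseudocount of 0.1, a value that rests on the 1 read of home cage replicate 7, Dlg4 was 0.043 after quantile normalization, 0.0085 with TMM (edgeR's trimmed mean scaling) and 0.070 with sample weights, Grm8 was -0.013 with sample weights, and Homer2 was -0.14 in edgeR's quasi-likelihood test and -0.17 in DESeq2. Sample weights, 0.172 for each home cage library and 1.96 to 7.07 for the others, left 0 higher and 2 lower of the 38 below an unadjusted p of 0.05. The share of all genes in that fit was not computed, so the drop cannot be read as particular to the 38. DESeq2 called 1128 genes and 3 of the 38, had 7 lower at an unadjusted p under 0.05 (10.5% of all genes), and gave a median of -0.42. The likelihood ratio test, chosen after seeing the data, called 1115 genes and 2 of the 38. Without division by gene length the family shares, as means of 5 libraries, were 89.1% for Cnih2, 52.7% for Grik5 and 28.3% for Dlgap3. Per kb these means were 95.9, 69.7 and 45.7%. Without that division, Dlgap1 had a mean share of 51.1% in home cage libraries and 26.9% after fear conditioning. The shares of Dlgap3 were then 17.0 and 35.8%, so its place in the SAPAP family depends on the deposited lengths.

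With each library left out in turn, limma called 0 to 8025 genes and 0 to 18 of the 38, with 3722 and 6 without home cage replicate 7 and the upper values without replicate 6. The counts of the 38 at an unadjusted p under 0.05 were 0 to 6 higher and 2 to 13 lower, and those without overlap 3 to 11 higher and 9 to 18 lower. The matching shares of all genes were not computed in these fits, so these counts cannot be read as particular to the 38. Calls and counts are not given for the fits with only home cage replicate 6 or 7 left, where 1 library shows no spread. The log2 fold changes of those fits enter the ranges that follow. The log2 fold changes that reversed spanned -0.31 to 2.07 for Gria4, -2.15 to 0.96 for Grin2a, -1.23 to 0.017 for Grin2c, -0.89 to 0.41 for Grin2d, -0.13 to 0.52 for Grik2, -1.02 to 0.60 for Grik3, -0.75 to 0.58 for Grm2, -0.19 to 0.57 for Grm3, -0.064 to 0.39 for Grm4, -1.35 to 0.076 for Grm5, -0.38 to 1.24 for Grm7, -0.020 to 0.31 for Grm8, -0.17 to 1.29 for Dlg2, -0.12 to 0.34 for Dlg3, -0.80 to 0.78 for Dlg4, -0.083 to 1.80 for Dlgap2, -0.39 to 1.60 for Dlgap3, -2.28 to 0.47 for Shank3 and -0.84 to 1.11 for Homer2. The cause was not tested.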
